A study of Mus musculus with 18 samples.

Results

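The 10 genes described here carry the presentation of antigen on MHC class II: *Ciita*, *H2-Aa*, *H2-Ab1*, *H2-Eb1*, *Cd74*, *H2-DMa*, *H2-DMb1*, *H2-DMb2*, *H2-Oa* and *Ctss*. They were picked by name out of 62197 genes in the count table. MHC class II molecules show peptides from endocytosed proteins to helper T cells, and dendritic cells (DCs) are known for this task. The α- and β-chains of I-A, encoded by *H2-Aa* and *H2-Ab1*, assemble with the invariant chain, encoded by *Cd74*, whose last piece in the peptide groove, CLIP, is left after trimming by proteases that include cathepsin S (*Ctss*). The exchange factor H2-M, built from *H2-DMa* and *H2-DMb1* or *H2-DMb2*, swaps CLIP for peptide, and H2-O, built from *H2-Oa* and *H2-Ob*, restrains H2-M. The transactivator CIITA, encoded by *Ciita*, does not bind DNA by itself and acts at class II promoters through RFX, CREB and NF-Y factors.

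RNA was sequenced from mouse bone marrow-derived DCs after 10 days of culture with fetal calf serum and a GM-CSF supernatant of J558 cells. The 18 libraries form 6 conditions of 3 libraries each. Nonconfined DCs labelled wild type (cPLA_2_ WT) or knockout (cPLA_2_ KO) for cytosolic phospholipase A_2_ were taken at the end of culture, and DCs of both genotypes were kept in a gap of 3 µm (confined) and collected after 4 h. The remaining 2 conditions are nonconfined DCs labelled cPLA_2_ WT or cPLA_2_ KO that received 100 ng/ml LPS for 30 min, were washed and were collected the next day. In cPLA_2_ KO cells floxed alleles of *Pla2g4a* are recombined by Cre from the *Itgax* (CD11c) promoter, so the loss is limited to cells that have switched this promoter on. The labels give neither age nor sex, do not say whether the 3 libraries of a condition come from separate animals, and name either of 2 stranded poly(A) kits without saying which library had which. The protocol text mentions LPS for all 18 libraries, while titles and treatments mention it for 6.

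The deposited values are reads divided by a size factor per library (normalized counts), and whole reads could be recovered from them. Depth ran from 33027230 to 61300021 reads, with 34689393 to 45020354 in nonconfined and 33592725 to 45769637 in confined cPLA_2_ WT DCs, 36034820 to 45021696 and 33027230 to 39400286 in the matching cPLA_2_ KO DCs, and 39609637 to 61300021 under LPS. All 10 genes passed the filter on low values (3 or more libraries with 10 or more normalized counts), as did 17875 genes in total. A gene is said to have risen or fallen when its adjusted p in limma was under 0.05. A value marked SE is the standard error of a log2 fold change, and a value after ± is the SD over the libraries. Some fold changes, levels and ratios are given without them.

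Scaling matters for the small changes. The mean normalized total was 34125100 in nonconfined and 39890270 in confined cPLA_2_ WT DCs, 34932739 and 35818964 in cPLA_2_ KO DCs, and 48718670 and 48721816 under LPS. When every library was scaled to the same total instead, the median change over all genes (log2) moved to -0.23 for confinement in cPLA_2_ WT DCs, -0.02 for confinement in cPLA_2_ KO DCs and -0.46 for LPS. It moved to 0.24 for the interaction of confinement with genotype, 0.19 for cPLA_2_ KO against cPLA_2_ WT when confined, 0.27 for confined cPLA_2_ WT DCs against LPS and 0.46 for confined cPLA_2_ KO DCs against LPS. With the deposited size factors the same medians lay between -0.01 and 0.05. Of all genes, the deposited scaling called 28.2% higher and 28.4% lower for confinement in cPLA_2_ WT DCs, 22.8% and 23.4% for confinement in cPLA_2_ KO DCs and 37.2% and 34.3% for LPS. With equal totals these shares were 20.0% and 41.3%, 20.8% and 25.9%, and 20.4% and 56.8%. A scaling moves all genes of a library alike, so a change relative to the median of all genes is nearly the same under both by construction and is given once, which is no check of it. Each sentence below that rests on a direction names the genes whose plain fold change turns.

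The targeted gene was lower in the libraries labelled cPLA_2_ KO without LPS and not in those with LPS. *Pla2g4a*, which encodes cPLA_2_, was at 697, 686 and 770 normalized counts in nonconfined cPLA_2_ WT DCs against 548, 542 and 533 in cPLA_2_ KO DCs. When confined it was at 1369, 1430 and 1321 against 923, 871 and 920. Under LPS the libraries labelled cPLA_2_ WT held 1005, 969 and 967 and those labelled cPLA_2_ KO held 1065, 1032 and 1028. The Y-linked gene *Ddx3y*, chosen after its values were seen, was at most 3.05 in the 6 cPLA_2_ WT libraries without LPS and at least 874 in the 6 cPLA_2_ KO ones, so genotype and the sex of the donors cannot be told apart there. The X-linked gene *Xist* ran from 22734 to 33681 in these cPLA_2_ WT libraries and from 12153 to 24835 in these cPLA_2_ KO ones. *Xist* thus did not split them as *Ddx3y* did. Under LPS *Ddx3y* was at 1271, 0 and 662 in the libraries labelled cPLA_2_ WT and at 2.12, 1476 and 783 in those labelled cPLA_2_ KO. The LPS libraries are therefore compared as a group of 6, with both labels averaged. Their *Ddx3y* values lay close in pairs across the labels: 1271 and 1476, 0 and 2.12, 662 and 783. Whether they are 6 independent samples is not known, so an SD or p that counts them as 6 may understate the spread.

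Markers of DCs were present in all conditions. *Itgax*, the most abundant of 5 DC markers, averaged 6281 normalized counts in nonconfined cPLA_2_ WT DCs, and all 5 markers fell with confinement in both genotypes, from a mean sum of 7718 to 5381 in cPLA_2_ WT and from 6885 to 5026 in cPLA_2_ KO DCs, while under LPS 2 rose, *Itgax* turning with equal totals, and 2 fell. The 6 macrophage markers summed to a mean of 50850 in nonconfined and 177992 in confined cPLA_2_ WT DCs, the latter led by *Cd14*, which DCs also express. With confinement 1 of these 6 rose and 2 fell in cPLA_2_ WT DCs and 1 rose and 3 fell in cPLA_2_ KO DCs, and under LPS 3 rose, *Fcgr1* turning with equal totals, and 3 fell. Markers of B cells, which also make class II molecules, summed to means between 23.7 and 97.6 normalized counts, and *Pax5* was below the filter. Of the 4 others, confinement lowered 2 in WT and 1 in KO cells, and 1 rose under LPS. The T cell markers *Cd3d* and *Cd3e* summed to means between 45.3 and 181 and fell with confinement in both genotypes and under LPS. *Siglech*, *Ccr9* and *Tcf4* of plasmacytoid DCs summed to means from 272 to 1918, of which *Tcf4* made up the most and *Siglech* was at 0 in the 3 libraries labelled LPS cPLA_2_ WT. Of these 3 genes 1 rose with confinement in cPLA_2_ WT DCs, 1 fell in cPLA_2_ KO DCs, and 2 rose and 1 fell under LPS.

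Markers of granulocytes were abundant, although the study's methods keep only loosely attached cells, a step meant to remove granulocytes. Those of neutrophils and their progenitors, led by *S100a9*, summed to a mean of 179698 in nonconfined and 113930 in confined cPLA_2_ WT DCs, 245845 and 254685 in cPLA_2_ KO DCs, and 228269 and 225812 in the LPS libraries labelled cPLA_2_ WT and cPLA_2_ KO. All 6 fell with confinement in cPLA_2_ WT DCs and 3 in cPLA_2_ KO DCs, and under LPS 2 rose, both turning with equal totals, and 3 fell. Those of eosinophils, led by *Prg2*, summed in the same order to 27963, 7081, 65342, 16381, 31483 and 31505, and 3 of 4 fell with confinement in each genotype and 4 under LPS. Those of mast cells and basophils summed to 8022, 2728, 12080, 5318, 7709 and 7970, and all 4 fell with confinement in each genotype and under LPS. The part of these cells in the class II values was not tested, and in bulk samples fewer cells of a type and less RNA per cell cannot be told apart.

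Per kilobase of the canonical transcript, *Cd74* was the highest of the 10 genes in each condition, and *H2-Oa* the lowest in all but confined cPLA_2_ WT DCs, where *Ciita* was. In nonconfined cPLA_2_ WT DCs *Cd74* stood at 168106 normalized counts per kb, *H2-Aa* at 70570, *H2-Ab1* at 69278, *H2-Eb1* at 38180 and *Ctss* at 33804. The accessory chains came next, *H2-DMa* at 15345, *H2-DMb2* at 7321 and *H2-DMb1* at 1944 per kb. *Ciita* followed at 1165 and *H2-Oa* at 1011. In this condition *H2-Aa* and *H2-Ab1* were the only neighbours in the order whose libraries overlapped. Confinement took *Ciita* to 571 per kb in cPLA_2_ WT DCs, below *H2-Oa* at 784, and under LPS *Ciita* stood at 1634, above *H2-DMb1* at 1286 and *H2-Oa* at 696.

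**Figure D1:**
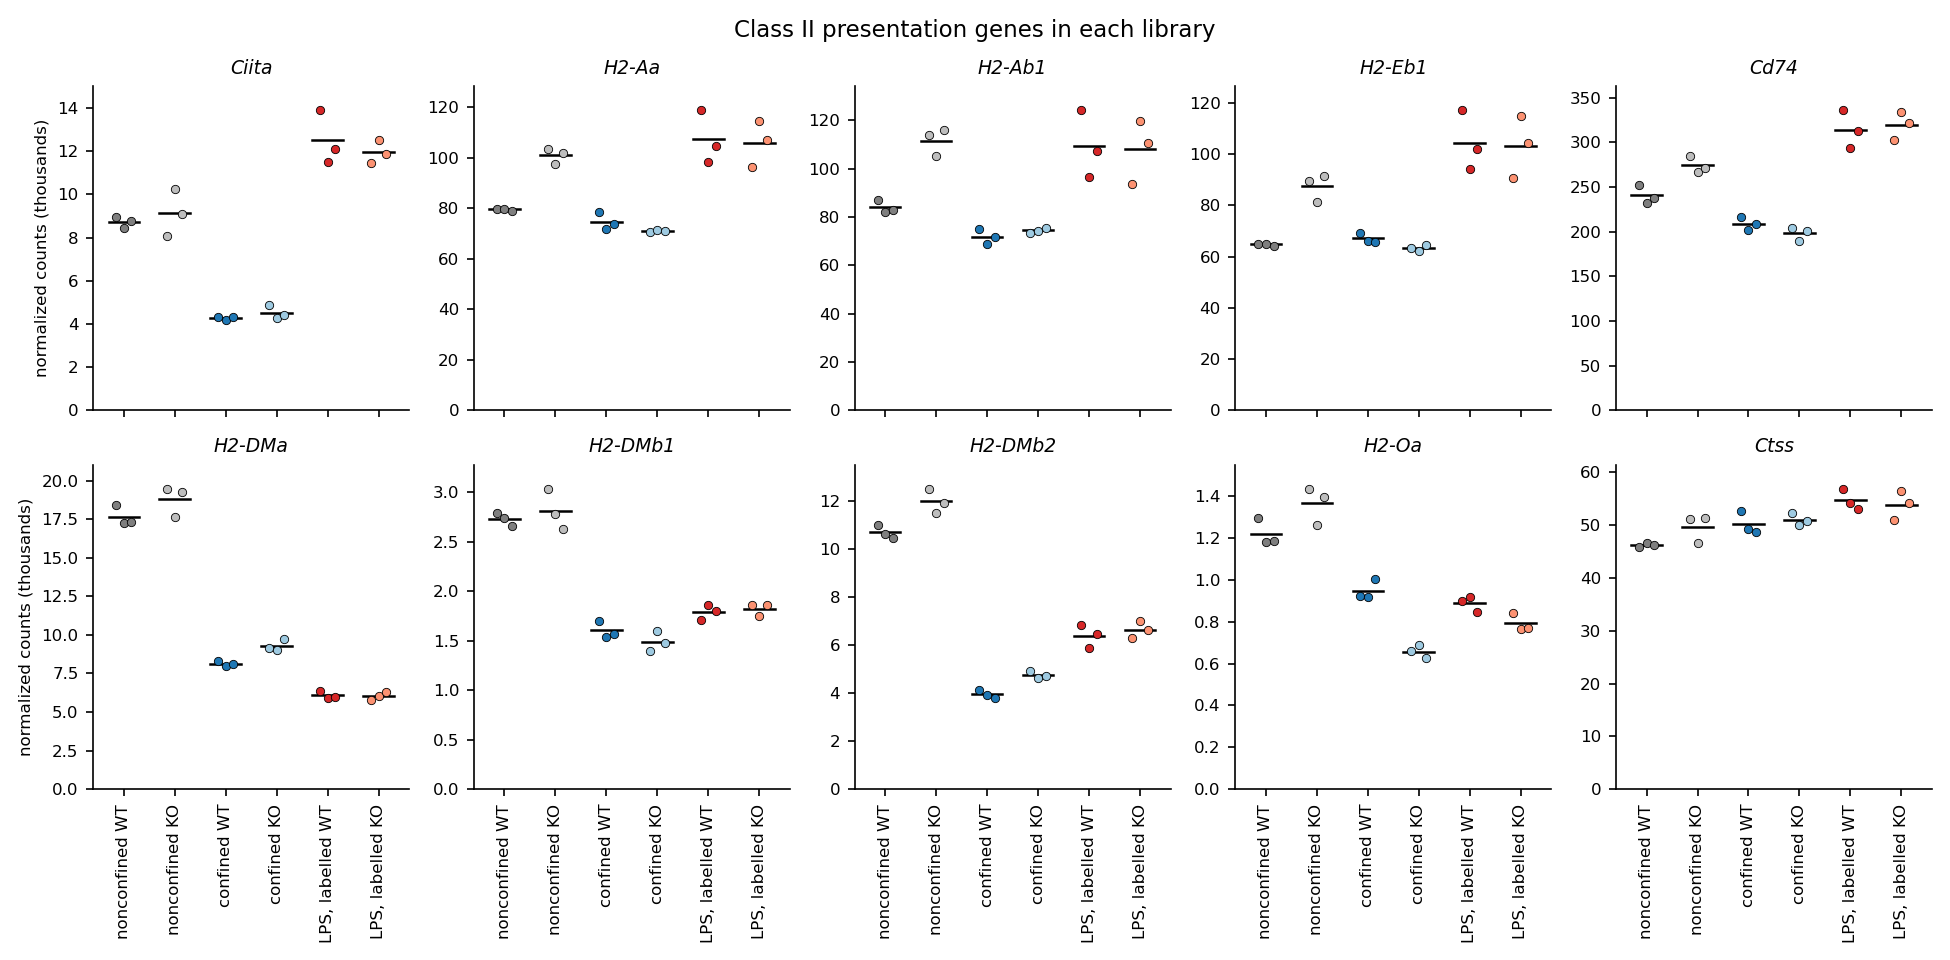
Normalized counts (vertical axis from 0, scaled as labelled) of the 10 genes in each of the 18 libraries, by condition; points are libraries, bars are means of 3, and WT and KO are the cPLA_2_ labels. *Ciita* is lowest in the 6 confined libraries (4206 to 4860), *H2-DMa* is lowest in the 6 LPS libraries (5786 to 6378), and nonconfined and LPS libraries overlap for *H2-Aa*, *H2-Ab1*, *H2-Eb1* and *Ctss*. The levels are those of the deposited scaling.

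*Ciita*, the master regulator of the set, (GSMG0020498) lies on chromosome 16 (10297923 to 10345504, mm39) and overlaps *Dexi* on the opposite strand. It was at 8962, 8434 and 8747 normalized counts in nonconfined cPLA_2_ WT DCs and at 4304, 4206 and 4319 in confined ones. The cPLA_2_ KO libraries held 8091, 10235 and 9079 before confinement and 4860, 4279 and 4421 after it. Each of the 6 confined libraries was below each nonconfined one. *Ciita* fell 2.04-fold in cPLA_2_ WT DCs (log2 fold change -1.03, SE 0.07, adjusted p = 8.68e-11) and 2.01-fold in cPLA_2_ KO DCs (-1.01, SE 0.07, adjusted p = 2.73e-10). The interaction of confinement with genotype was 0.02 (SE 0.10, adjusted p = 0.935) and did not pass.

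Under LPS *Ciita* was at 13909, 11511 and 12094 in the libraries labelled cPLA_2_ WT and at 11455, 12502 and 11895 in those labelled cPLA_2_ KO. These 6 libraries lay above the nonconfined ones, a rise of 1.37-fold with the deposited scaling (0.45, SE 0.05, adjusted p = 6.49e-08) that turned to -0.04 with equal totals. Relative to the median of all genes *Ciita* was 0.43 higher. As a share of all counts *Ciita* made up 0.0255 ± 0.000661% (SD, n = 3) of nonconfined cPLA_2_ WT libraries, 0.0107 ± 0.000131% of confined ones (SD, n = 3) and 0.0251 ± 0.00157% (SD, n = 6) under LPS. Against LPS, *Ciita* was 2.85-fold lower in confined cPLA_2_ WT DCs (-1.51, SE 0.06) and lower as well in confined cPLA_2_ KO DCs (-1.43, SE 0.06), below all 6 LPS libraries in both cases. With the deposited scaling the conditions ran LPS, nonconfined, confined from high to low, and within each of these steps the libraries of both genotype labels overlapped. With equal totals the difference between LPS and nonconfined DCs did not pass, and confined cPLA_2_ KO DCs were above confined cPLA_2_ WT DCs (0.23, adjusted p = 0.00887).

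*H2-Ab1*, the I-A β-chain (GSMG0023093) on chromosome 17 (34482201 to 34488392), was at 86934, 81989 and 82973 normalized counts in nonconfined and 74969, 68957 and 71549 in confined cPLA_2_ WT DCs. The cPLA_2_ KO libraries held 113669, 105060 and 115984 before and 73500, 74283 and 75588 after confinement. The nonconfined cPLA_2_ KO libraries were the high ones, and the confined libraries of both genotypes overlapped with the deposited scaling, although with equal totals cPLA_2_ KO was higher (0.21, adjusted p = 0.0183). *H2-Ab1* fell 1.17-fold in cPLA_2_ WT DCs (-0.23, SE 0.08, adjusted p = 0.019), a call that was lost without nonconfined cPLA_2_ WT replicate 1 (-0.20, adjusted p = 0.0707) or confined cPLA_2_ WT replicate 2 (-0.20, adjusted p = 0.0746). It fell in cPLA_2_ KO DCs as well (-0.58, SE 0.08, adjusted p = 3.25e-06).

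*H2-Aa* (GSMG0024633), the I-A α-chain, averaged 79603 ± 456 normalized counts in nonconfined and 74663 ± 3433 in confined cPLA_2_ WT DCs (SD, n = 3 each). The change of -0.09 (SE 0.06, adjusted p = 0.213) did not pass, although it did with equal totals (-0.32, adjusted p = 2.36e-05). *H2-Aa* fell in cPLA_2_ KO DCs from 101046 ± 3076 to 71048 ± 378 (SD, n = 3 each; -0.51, SE 0.06, adjusted p = 8.26e-07). *H2-Eb1* (GSMG0023067), the β-chain of the second class II isotype I-E, was at 64792 ± 467 and 67127 ± 1870 in cPLA_2_ WT DCs (SD, n = 3 each), a difference of 0.05 (SE 0.07, adjusted p = 0.584) that turned to -0.17 with equal totals. It fell in cPLA_2_ KO DCs from 87485 ± 5478 to 63398 ± 1198 (SD, n = 3 each; -0.46, SE 0.07, adjusted p = 2.37e-05). Its partner, the I-E α-chain gene *H2-Ea*, was listed at no more than 3.66 normalized counts in any library and was below the filter.

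*Cd74*, the invariant chain (GSMG0025929) on chromosome 18 (60936920 to 60945723), was at 252117, 232219 and 237341 normalized counts in nonconfined and 216457, 201619 and 207944 in confined cPLA_2_ WT DCs. It fell 1.15-fold there (-0.20, SE 0.06, adjusted p = 0.0034). For cPLA_2_ KO DCs it went from 284485, 266470 and 271538 to 204144, 189379 and 201148, a 1.38-fold fall (-0.47, SE 0.06, adjusted p = 5.39e-07). As for *H2-Ab1*, the nonconfined cPLA_2_ KO libraries were high and the confined ones of both genotypes overlapped with the deposited scaling.

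Under LPS the classical chains and *Cd74* spread more widely between libraries than in the other conditions. *H2-Ab1* was at 124202, 96465 and 107411 in the libraries labelled cPLA_2_ WT and at 93508, 119505 and 110659 in those labelled cPLA_2_ KO. The libraries with much *Ddx3y*, replicate 1 labelled cPLA_2_ WT and replicate 2 labelled cPLA_2_ KO, were the highest of their label for *H2-Ab1*, and those with *Ddx3y* at 0 or 2.12 were the lowest. The eosinophil marker *Epx*, chosen after its values were seen, split alike, at 10640, 5535 and 8046 and at 5455, 10123 and 8367, and its part in the class II values was not tested. Nonconfined cPLA_2_ KO libraries, with a mean of 111571, overlapped these, whose means were 109359 and 107891, and nonconfined cPLA_2_ WT libraries lay below, all with the deposited scaling. Against nonconfined DCs of both genotypes averaged *H2-Ab1* rose by 0.16 (SE 0.06, adjusted p = 0.0145), which was lost with TMM scaling (0.11, adjusted p = 0.0758), in edgeR (0.12, adjusted p = 0.0544), without LPS replicate 1 labelled cPLA_2_ WT (0.11, adjusted p = 0.0531) or replicate 2 labelled cPLA_2_ KO (0.12, adjusted p = 0.0503) or with only the libraries labelled LPS cPLA_2_ KO (0.15, adjusted p = 0.0591), and which turned to -0.34 with equal totals.

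*H2-Aa* rose by 0.25 (SE 0.04), *H2-Eb1* by 0.46 (SE 0.05) and *Cd74* by 0.30 (SE 0.04) under LPS, and these turned to -0.25, -0.04 and -0.20 with equal totals. Relative to the median of all genes, *H2-Aa*, *H2-Eb1* and *Cd74* were 0.23, 0.44 and 0.28 higher. *H2-Eb1* averaged 103912 ± 10638 normalized counts under LPS and *Cd74* 316495 ± 17030 (SD, n = 6 each).

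The H2-M chains fell with confinement and with LPS alike. *H2-DMa* (GSMG0023085), on chromosome 17 (34341805 to 34358075), was at 18411, 17250 and 17325 normalized counts in nonconfined and 8307, 8004 and 8110 in confined cPLA_2_ WT DCs. The cPLA_2_ KO libraries held 19461, 17649 and 19253 before and 9130, 9033 and 9728 after it. Under LPS it was at 6378, 5915 and 5972 in the libraries labelled cPLA_2_ WT and at 5786, 6053 and 6291 in those labelled cPLA_2_ KO. Nonconfined, confined and LPS libraries formed steps without overlap, with LPS lowest. *H2-DMa* fell 2.17-fold with confinement in cPLA_2_ WT DCs (-1.12, SE 0.05, adjusted p = 2.01e-14), 2.02-fold in cPLA_2_ KO DCs (-1.01, SE 0.05, adjusted p = 3.44e-13) and 3.00-fold under LPS (-1.59, SE 0.03, adjusted p = 2.36e-20).

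*H2-DMb2* (GSMG0023086), which with *H2-DMb1* (GSMG0023087) encodes the β-chain of H2-M, had the largest fall of the 10 genes under confinement. It went from 11016, 10627 and 10468 normalized counts to 4156, 3911 and 3786 in cPLA_2_ WT DCs, a 2.71-fold fall (-1.44, SE 0.05, adjusted p = 2.47e-15). The cPLA_2_ KO libraries went from 12521, 11522 and 11951 to 4921, 4621 and 4718 (-1.34, SE 0.05, adjusted p = 3.49e-14). The LPS libraries lay between 5905 and 7009, below the nonconfined ones (-0.80, SE 0.04, adjusted p = 4.56e-14). Confined cPLA_2_ WT DCs were lower than LPS under both scalings, and confined cPLA_2_ KO DCs with the deposited scaling but not with equal totals (-0.01, adjusted p = 0.799). *H2-DMb1* fell from 2730 ± 65.6 to 1604 ± 84.2 in cPLA_2_ WT DCs (SD, n = 3 each; -0.77, SE 0.06), from 2811 ± 206 to 1489 ± 101 in cPLA_2_ KO DCs (SD, n = 3 each; -0.92, SE 0.06) and to 1805 ± 66.2 under LPS (SD, n = 6; -0.62, SE 0.04). *H2-DMb1* and *H2-DMb2* lie side by side and are close paralogues, so the split of reads between them is uncertain.

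*H2-Oa* (GSMG0023084), the α-chain of the H2-M inhibitor H2-O, differed between genotypes when confined. It was at 1295, 1182 and 1186 normalized counts in nonconfined and 922, 918 and 1002 in confined cPLA_2_ WT DCs, and at 1435, 1264 and 1397 and then 659, 687 and 625 in cPLA_2_ KO DCs. With the deposited scaling the confined cPLA_2_ KO libraries were the lowest of all 18, but their difference from LPS (-0.35) turned to 0.09 with equal totals (adjusted p = 0.177). *H2-Oa* fell 1.29-fold in cPLA_2_ WT DCs (-0.37, SE 0.07, adjusted p = 9.05e-05) and 2.07-fold in cPLA_2_ KO DCs (-1.05, SE 0.07, adjusted p = 4.67e-11). The difference between these changes passed (-0.69, SE 0.10, adjusted p = 9.76e-06), and confined cPLA_2_ KO DCs were below confined cPLA_2_ WT DCs (-0.53, SE 0.07, adjusted p = 1.83e-06). Under LPS it averaged 841 ± 62.8 (SD, n = 6), a fall of 1.54-fold (-0.62, SE 0.05, adjusted p = 1.37e-10).

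*H2-Ob*, the β-chain that pairs with *H2-Oa*, and *H2-Eb2* were the other class II genes of the locus past the filter. *H2-Ob* fell with confinement in cPLA_2_ WT DCs (-0.79, SE 0.08) and in cPLA_2_ KO DCs (-1.06, SE 0.08), with means of 617 ± 47.9 and 629 ± 69.7 normalized counts in the confined libraries (SD, n = 3 each). Under LPS its change was 0.04 (SE 0.05) and did not pass with the deposited scaling, and it turned to -0.45 with equal totals. *H2-Eb2* is a class II β-chain gene beside *H2-Eb1*. It was at 270, 265 and 278 normalized counts in nonconfined cPLA_2_ WT DCs and at 218, 316 and 230 in cPLA_2_ KO DCs, and under LPS it rose to between 1417 and 1636 (2.54, SE 0.08). With confinement it was at 314, 292 and 280 in cPLA_2_ WT DCs, whereas it fell to 83.1, 96.0 and 97.5 in cPLA_2_ KO DCs (-1.44, SE 0.11), and the interaction was -1.56 (SE 0.16).

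*Ctss* (GSMG0034370, chromosome 3), the protease cathepsin S, lay between 45800 and 56818 normalized counts in all 18 libraries. It was at 45800, 46492 and 46235 normalized counts in nonconfined and 52571, 49263 and 48631 in confined cPLA_2_ WT DCs, a rise of 0.12 (SE 0.05, adjusted p = 0.039) that turned to -0.11 with equal totals. This call was also lost without a filter on low values (adjusted p = 0.0735), without nonconfined cPLA_2_ WT replicate 1 (0.11), 2 (0.12) or 3 (0.12), and without confined cPLA_2_ WT replicate 1 (0.08). The cPLA_2_ KO libraries held 51028, 46675 and 51295 and then 52317, 49984 and 50731, which overlap (0.04, SE 0.05, adjusted p = 0.526). Under LPS it averaged 54222 ± 2201 (SD, n = 6), a rise of 0.18 (SE 0.03, adjusted p = 6.52e-05) that turned to -0.32 with equal totals and was 0.16 relative to the median of all genes.

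Confinement at 3 µm in cPLA_2_ WT DCs, set against nonconfined ones, lowered 7 of the 10 genes: *Ciita*, *H2-Ab1*, *Cd74*, *H2-DMa*, *H2-DMb1*, *H2-DMb2* and *H2-Oa*. No other gap height was sequenced, so cell shape, contact with the device and the 4 h spent in it cannot be told apart. *Ctss* rose with the deposited scaling and fell with equal totals, and *H2-Aa* and *H2-Eb1* did not pass. With equal totals all 10 genes were lower past the threshold, *H2-Eb1* included (-0.17, adjusted p = 0.0238), as were 41.3% of all genes, with 20.0% higher. With the deposited scaling 28.4% of all genes fell and 28.2% rose. The median of the 10 genes was -0.30, against -0.01 over all genes. This comparison and the one with LPS share the nonconfined libraries. With the further demand of an absolute log2 fold change above 1, *Ciita*, *H2-DMa* and *H2-DMb2* were left. The share of all genes that met this demand is not given, so no comparison with all genes is drawn from it.

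Confinement of cPLA_2_ KO DCs lowered 9 of the 10 genes, and *Ctss* did not pass. The background was 23.4% of all genes lower and 22.8% higher, and the medians were -0.75 for the 10 genes and 0.01 for all genes. The difference between the genotypes in their response passed for 5 genes, all negative with the deposited scaling, against 15.6% of all genes with a negative and 10.2% with a positive interaction. Besides *H2-Oa* these were *H2-Eb1* (-0.51, SE 0.10, adjusted p = 0.000708), *H2-Aa* (-0.41, SE 0.09, adjusted p = 0.00115), *H2-Ab1* (-0.36, SE 0.11, adjusted p = 0.0217) and *Cd74* (-0.26, SE 0.08, adjusted p = 0.0164). The last of them, *Cd74*, was lost with equal totals (-0.07, adjusted p = 0.37) and without nonconfined cPLA_2_ WT replicate 2 (-0.24, adjusted p = 0.0505). *H2-Ab1* was lost with equal totals (-0.17, adjusted p = 0.195) and without nonconfined cPLA_2_ WT replicate 2 (-0.34), nonconfined cPLA_2_ KO replicate 3 (-0.33) or confined cPLA_2_ WT replicate 1 (-0.33). The median interaction was -0.21 for the 10 genes and 0.05 for all genes. With equal totals *H2-DMa* and *H2-DMb2* passed with a positive interaction of 0.29 each, and *H2-Oa*, *H2-Eb1* and *H2-Aa* with a negative one, against 4741 and 1962 of all 17875 genes. All 6 neutrophil markers (median 1.18) and 2 of 4 of mast cells and basophils had a positive interaction under both scalings. A negative one was found for 2 of 6 of macrophages and 1 of 3 of plasmacytoid DCs under both scalings. For 1 of 5 of DCs it was negative with the deposited scaling. With equal totals 2 of macrophages and 1 of DCs had a positive one. The part of these cells in the class II values was not tested.

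The genotypes also differed before confinement, where donor and genotype cannot be told apart. Between nonconfined genotypes, *H2-Eb1* (0.43, SE 0.07), *H2-Ab1* (0.41, SE 0.08), *H2-Aa* (0.34, SE 0.06) and *Cd74* (0.19, SE 0.06) were higher in cPLA_2_ KO DCs, against 4.78% of all genes higher and 4.11% lower. The medians were 0.16 for the 10 genes and -0.00 for all genes. *Cd74* (adjusted p = 0.037) missed the threshold without a filter on low values (adjusted p = 0.0765), in a fit of these conditions alone (adjusted p = 0.0676) and without nonconfined cPLA_2_ WT replicate 2 (0.16) or 3 (0.18) or nonconfined cPLA_2_ KO replicate 1 (0.16) or 3 (0.20). *H2-DMb2* (0.16, adjusted p = 0.069) passed in DESeq2 (0.16, adjusted p = 0.0347) and without nonconfined cPLA_2_ KO replicate 2 (0.19, adjusted p = 0.043). Granulocyte markers differed in the same libraries: 3 of 4 eosinophil markers were higher and 1 lower in cPLA_2_ KO DCs, 3 of 6 of neutrophils were higher, and 3 of 4 of mast cells and basophils. Their part in the class II levels was not tested.

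In confined DCs the genotypes differed in 3 of the 10 genes. *H2-DMa* (0.19, SE 0.05, adjusted p = 0.00315) and *H2-DMb2* (0.27, SE 0.05, adjusted p = 0.000502) were higher and *H2-Oa* was lower in the libraries labelled cPLA_2_ KO, against 18.8% of all genes higher and 20.6% lower. The median was -0.02 for the 10 genes and 0.04 for all genes. With equal totals *Ciita* (0.23), *H2-Ab1* (0.21) and *Ctss* (0.18) passed as well, so 5 were higher and 1 lower, against 33.6% and 14.6% of all genes. All 6 neutrophil markers and all 4 of mast cells and basophils were higher in confined cPLA_2_ KO DCs, as were 3 of 4 eosinophil markers, with 1 lower with the deposited scaling. With that scaling 2 of 6 of macrophages and 1 of 4 tested of B cells were higher. Lower were 2 of macrophages, 1 of 5 of DCs and 1 of 3 of plasmacytoid DCs. With equal totals 3 of macrophages, 2 of B cells, 1 of DCs and 1 of T cells were higher, and 2 of macrophages and 1 of plasmacytoid DCs lower. The part of these cells in these values was not tested.

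**Figure D2:**
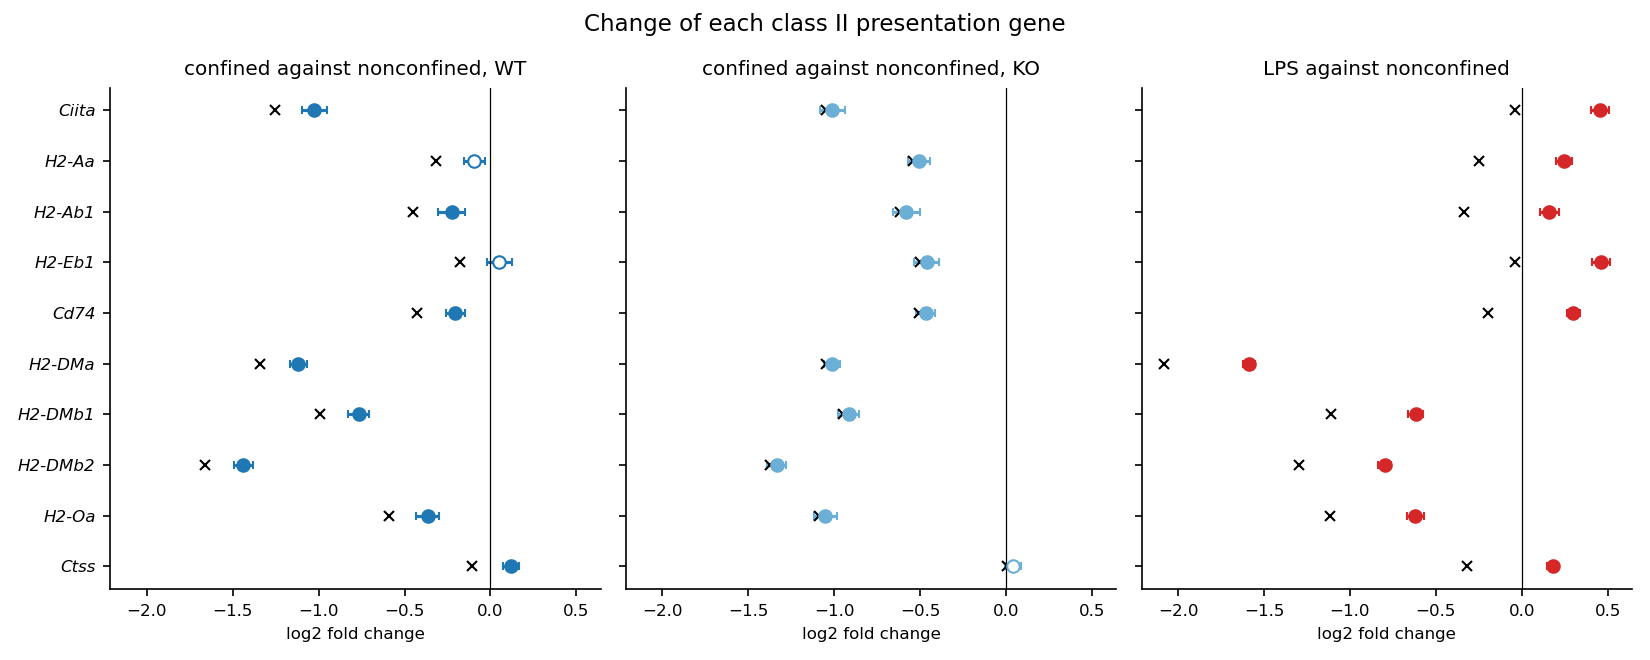
Log2 fold change (horizontal axis) of the 10 genes for confinement in each genotype and for LPS against nonconfined DCs; circles and bars are the limma estimate and its SE with the deposited scaling, filled where adjusted p is under 0.05, and crosses are the estimate at equal library totals. *Ciita* and the H2-M chains are left of 0 in both confinement panels under both scalings, whereas under LPS the circles of *Ciita*, *H2-Aa*, *H2-Ab1*, *H2-Eb1*, *Cd74* and *Ctss* are right of 0 and their crosses left of it.

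LPS, the classical stimulus for DC maturation, split the set in a different way. With the deposited scaling *Ciita*, *H2-Aa*, *H2-Ab1*, *H2-Eb1*, *Cd74* and *Ctss* rose, and the 4 accessory genes *H2-DMa*, *H2-DMb1*, *H2-DMb2* and *H2-Oa* fell, against 37.2% of all genes higher and 34.3% lower. With equal totals the 6 that rose all turned, and 8 of the 10 genes were lower past the threshold, against 56.8% of all genes lower and 20.4% higher. The 4 accessory genes fell under both scalings. The medians with the deposited scaling were 0.17 for the 10 genes and 0.02 for all genes. With equal totals *Ciita* and *H2-Eb1*, at -0.04 each, did not pass in limma (adjusted p = 0.449 and 0.466). None of the 6 turned with TMM scaling. There *Ciita* (0.41), *H2-Aa* (0.20) and *H2-Eb1* (0.41) still rose, and *H2-Ab1* (0.11) missed the threshold. Between the libraries labelled cPLA_2_ KO and cPLA_2_ WT under LPS, limma called 0% of all genes higher and 0% lower, with 890 genes at an unadjusted p under 0.05, *H2-Oa* the 1 of the 10 among them. EdgeR and DESeq2 also called 0 of 17875, with 812 and 814 genes at an unadjusted p under 0.05. Under LPS *Pla2g4a* was not lower in the libraries labelled cPLA_2_ KO, and *Ddx3y* split the libraries within each label. These counts therefore cannot show whether cPLA_2_ matters under LPS.

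Set against LPS, confined DCs of both genotypes held less *Ciita*. Confined DCs were collected after 4 h and LPS libraries the next day. Stimulus and time therefore cannot be told apart when confined DCs of either genotype are compared with LPS. In confined cPLA_2_ WT DCs *H2-Eb1* (-0.62, SE 0.06), *Cd74* (-0.60, SE 0.05), *H2-Ab1* (-0.59, SE 0.07) and *H2-Aa* (-0.51, SE 0.05) were lower under both scalings. *H2-DMb2* was lower as well (-0.72, SE 0.05), and *H2-DMa* was higher (0.43, SE 0.04). In total 8 of the 10 genes were lower and 2 higher, against 29.8% and 24.5% of all genes, with medians of -0.55 and -0.01. With equal totals 6 were lower and 3 higher, against 2679 and 8056 of all 17875 genes, with medians of -0.26 and 0.27. Markers moved too: with both scalings all 6 of neutrophils, all 4 of mast cells and basophils, 3 of 4 of eosinophils, 4 of 4 tested of B cells and 4 of 5 of DCs were lower, with 1 of eosinophils and 1 of DCs higher. Under both, 2 of 3 of plasmacytoid DCs were lower. Of 6 of macrophages 3 were higher and 3 lower with the deposited scaling, and 3 and 1 with equal totals, where *Mertk* turned. The part of these cells in these values was not tested. The small differences were unstable: *H2-DMb1* (-0.17) and *Ctss* (-0.11) turned to 0.12 and 0.18 with equal totals and missed the threshold with TMM scaling and in edgeR (-0.10 and -0.04 in both) and without confined cPLA_2_ WT replicate 2 (-0.14 and -0.10). *Ctss* also missed it without confined cPLA_2_ WT replicate 3 (-0.09) and without LPS replicate 1 labelled cPLA_2_ WT or 2 labelled cPLA_2_ KO (-0.10 each), and against only the libraries labelled LPS cPLA_2_ KO (-0.10). *H2-Oa* (0.17) missed it without confined cPLA_2_ WT replicate 3 (0.13) and against only the libraries labelled LPS cPLA_2_ WT (0.09) or only those numbered 1 and 2 (0.15), the last chosen after seeing the data.

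Confined cPLA_2_ KO DCs against LPS had 8 genes lower and 1 higher, against 32.5% and 30.3% of all genes and medians of -0.50 and 0.03. With equal totals 4 were lower and 3 higher, against 16.7% and 56.6% of all genes and medians of -0.05 and 0.46. Of the markers, 4 of 5 of DCs, 3 of 4 of eosinophils, 3 of 4 of mast cells and basophils and 2 of 4 tested of B cells were lower with the deposited scaling, and 4, 2, 1 and 1 with equal totals, while 2 of 6 of neutrophils were higher, and 3 with equal totals, as was 1 each of DCs and eosinophils under both scalings. Of 6 of macrophages 2 were higher and 3 lower with the deposited scaling, and 3 and 3 with equal totals. Under both scalings 2 of 3 of plasmacytoid DCs were lower and 1 of 2 of T cells was higher. The part of these cells was not tested. *H2-Eb1* (-0.71, SE 0.06), *Cd74* (-0.67, SE 0.05) and *H2-Aa* (-0.58, SE 0.05) were lower under both scalings, and *H2-DMa* (0.62, SE 0.04) was higher under both. *H2-Ab1* (-0.54) and *H2-DMb2* (-0.46) did not pass with equal totals (-0.09 and -0.01). *H2-DMb1* (-0.28) and *H2-Oa* (-0.35) turned to 0.16 and 0.09 with equal totals, as did *Ctss* (-0.09 to 0.36), which had not passed but did without LPS replicate 1 labelled cPLA_2_ KO (-0.11, adjusted p = 0.025).

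Ratios of reads between 2 genes of a library do not depend on the scaling. *H2-DMa* reads per 100 reads of *H2-Aa* were 22.2 ± 0.768 in nonconfined and 10.9 ± 0.291 in confined cPLA_2_ WT DCs, 18.6 ± 0.444 and 13.1 ± 0.535 in cPLA_2_ KO DCs (SD, n = 3 each) and 5.71 ± 0.321 under LPS (SD, n = 6). The exchange factor was lowest relative to the I-A α-chain under LPS, and no library of these groups overlapped another's. *H2-DMb2* per 100 *H2-Ab1* went from 12.7 to 5.50 with confinement in cPLA_2_ WT DCs and from 10.8 to 6.39 in cPLA_2_ KO DCs, and was 6.04 under LPS. *H2-Oa* per 100 *H2-DMa*, inhibitor over exchange factor, was 6.91 in nonconfined and 11.6 in confined cPLA_2_ WT DCs and 13.9 under LPS, whereas in cPLA_2_ KO DCs it was 7.26 before and 7.08 after confinement, where the libraries overlapped. *Ciita* per 100 *H2-Ab1* was 10.4 in nonconfined and 5.96 in confined cPLA_2_ WT DCs, 8.23 and 6.07 in cPLA_2_ KO DCs and 11.3 under LPS. Within a genotype, 3 libraries against 3, an exact two-sided permutation test cannot go below 0.1. With both genotype labels pooled, 6 libraries against 6, the same test cannot go below 0.00216, and the adjustment runs over the 8 tests of 4 ratios in 2 comparisons. In that exact permutation test *H2-DMa* over *H2-Aa* and *H2-DMb2* over *H2-Ab1* gave p = 0.00216 (adjusted 0.00289) both for confinement and for LPS. *H2-Oa* over *H2-DMa* gave an exact p = 0.00216 (adjusted 0.00289) for LPS and 0.104 (adjusted 0.104) for confinement, and *Ciita* over *H2-Ab1* an exact p = 0.00433 (adjusted 0.00495) for LPS and 0.00216 (adjusted 0.00289) for confinement. Pooling mixes the genotypes, so it says nothing on a difference between them. Since it is not known whether the 6 LPS libraries are independent samples, the p values of this permutation test for LPS may be too low.

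**Figure D3:**
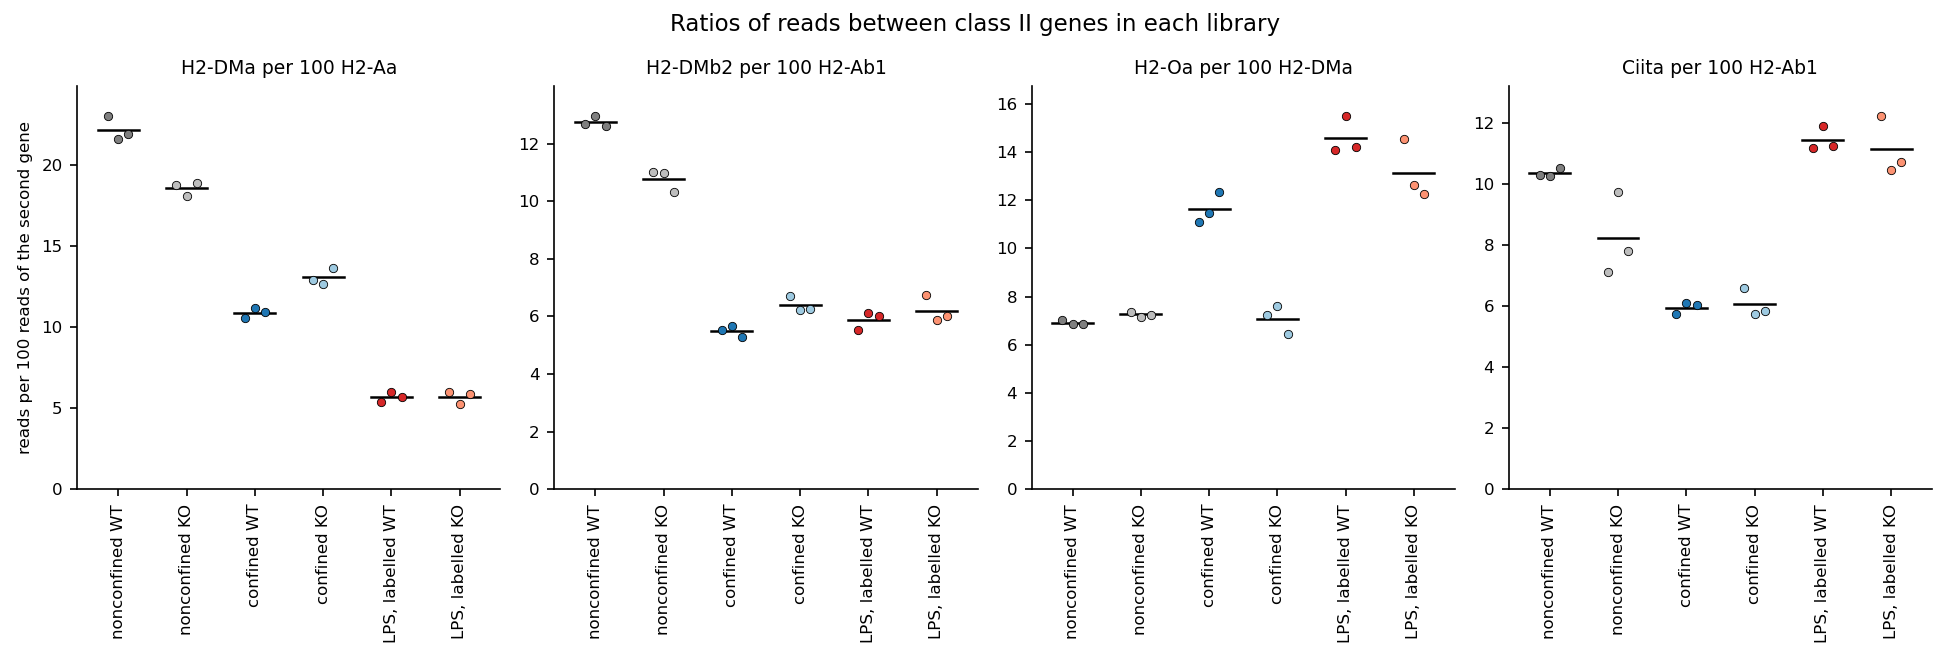
Reads of the first gene per 100 reads of the second (vertical axis from 0) in each of the 18 libraries, by condition; points are libraries and bars are means of 3. *H2-DMa* per 100 *H2-Aa* falls from nonconfined through confined to LPS libraries, and *H2-Oa* per 100 *H2-DMa* is at least 11.1 in confined WT and LPS libraries and at most 7.60 in the others; such ratios are the same under each scaling.

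The 10 genes made up 1.63 ± 0.0338% of all counts in nonconfined and 1.23 ± 0.0232% in confined cPLA_2_ WT DCs, 1.91 ± 0.0507% and 1.34 ± 0.0107% in cPLA_2_ KO DCs (SD, n = 3 each) and 1.47 ± 0.0853% under LPS (SD, n = 6). This share was lower in each confined library than in each nonconfined one. It was also lower under LPS than in each nonconfined library, although 6 of the 10 genes were higher in normalized counts.

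Of 12 genes whose products are known to act on *Ciita*, which include interferon regulatory factors and the interferon-γ receptor chain genes, 9 rose with confinement in cPLA_2_ WT DCs and 1, *Spi1*, fell (-0.19, SE 0.06), with a median of 0.43, against 28.2% of all genes higher and 28.4% lower. With equal totals 6 were higher and 3 lower past the threshold, against 20.0% and 41.3% of all genes. *Irf1*, which activates the interferon-responsive promoter of *Ciita*, rose from between 1932 and 2009 normalized counts to between 4040 and 4242 (1.07, SE 0.08). *Prdm1*, a repressor of *Ciita*, had the largest increase (1.57, SE 0.10). None of the 10 that passed turned with equal totals.

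Confinement of cPLA_2_ KO DCs raised 2 of the 12 and lowered 6, with a median of -0.15, against 22.8% of all genes higher and 23.4% lower. *Irf1* fell there (-0.50, SE 0.08). The interaction passed for 9 of the 12, all negative with the deposited scaling, against 15.6% of all genes with a negative and 10.2% with a positive one. With equal totals 8 were negative and 1, *Spi1*, positive (0.29), against 1962 and 4741 of all 17875 genes. With the deposited scaling it was -1.57 (SE 0.12) for *Irf1* and 0.02 for *Ciita*, which did not pass. When confined, 10 of the 12 were lower in the libraries labelled cPLA_2_ KO (20.6% of all genes were), *Jak1* turning to 0.03 with equal totals, where 8 were lower and 2 higher past the threshold (14.6% and 33.6% of all genes were), and *Spi1* was higher (0.18, SE 0.06), with *Irf1* the most different (-1.54, SE 0.08).

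Under LPS 11 of the 12 rose with the deposited scaling, of which *Irf2*, *Irf4*, *Spi1* and *Usf1* turned with equal totals, and 1 fell, with a median of 0.70, against 37.2% of all genes higher and 34.3% lower. With equal totals 7 were higher and 3 lower past the threshold, against 20.4% and 56.8% of all genes. *Prdm1* (2.72, SE 0.07) and *Irf1* (1.70, SE 0.06) rose under both scalings, and *Ifngr1*, an interferon-γ receptor chain gene, fell under both (-0.82, SE 0.04). Between nonconfined genotypes 2 of the 12 were lower in cPLA_2_ KO DCs, against 4.11% of all genes lower and 4.78% higher.

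**Figure D4:**
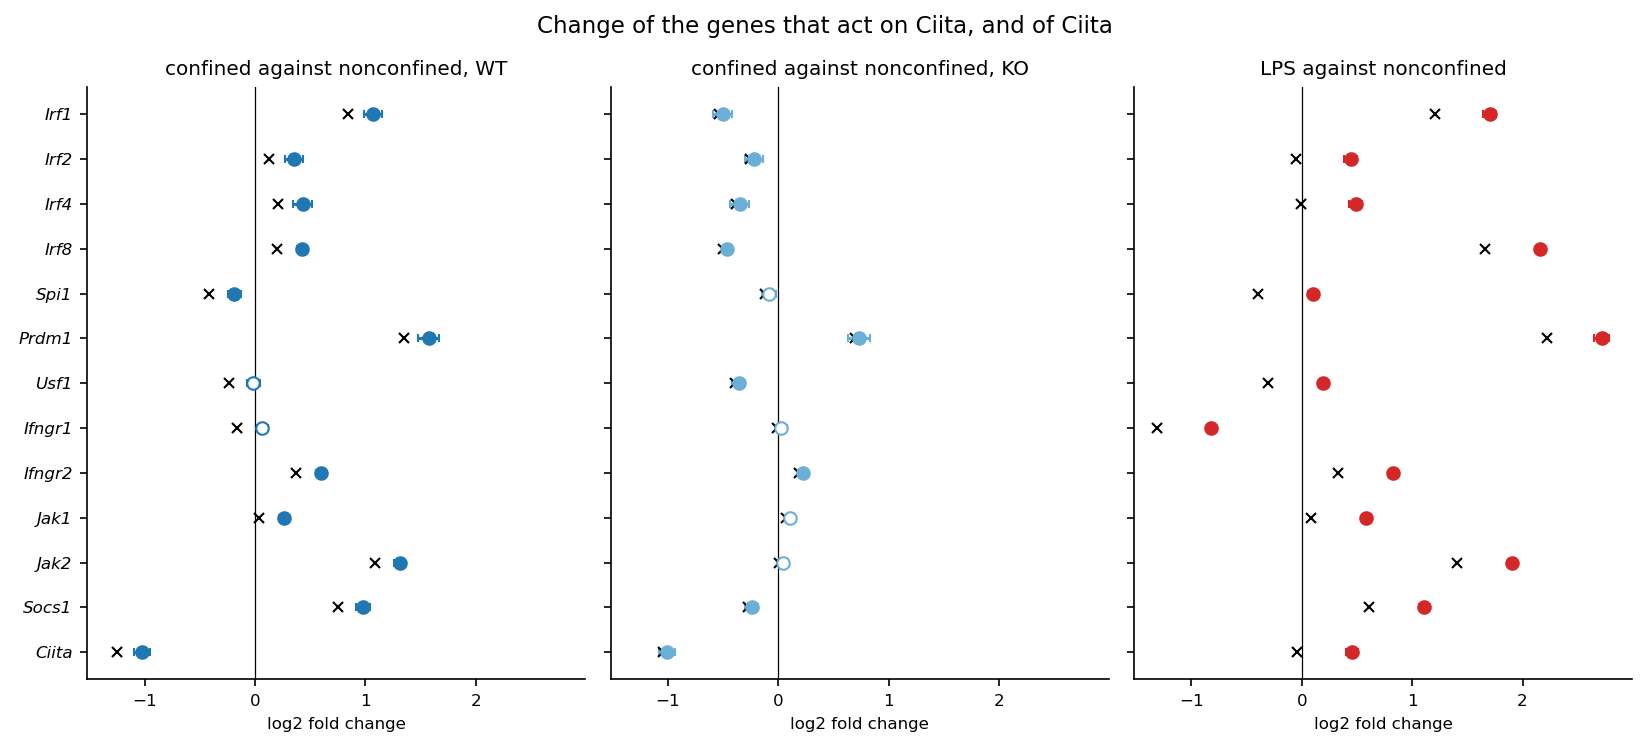
Log2 fold change (horizontal axis) of 12 genes that act on *Ciita*, and of *Ciita*, for confinement in each genotype and for LPS against nonconfined DCs; circles, bars and crosses are as in the plot of the 10 genes. With the deposited scaling *Irf1* lies right of 0 for confinement in cPLA_2_ WT DCs (1.07) and left of 0 in cPLA_2_ KO DCs (-0.50), while *Ciita* lies at -1.03 and -1.01. Each stays on its side of 0 with equal totals, whereas under LPS *Irf2*, *Irf4*, *Spi1*, *Usf1* and *Ciita* turn.

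The class II promoter factors are the partners through which CIITA acts. Of 7 genes 4 rose with confinement in cPLA_2_ WT DCs (28.2% of all genes did), with a median of 0.22, *Rfx5* most (0.61, SE 0.11). With equal totals 2 were higher and 2 lower past the threshold (20.0% and 41.3% of all genes were), with a median of -0.00, and *Rfxank*, also an RFX subunit, turned to -0.00. For confinement of cPLA_2_ KO DCs the adjusted p of the 7 ran from 0.07 to 0.603, and *Rfx5* was at 0.11 (SE 0.11). When confined, 4 of the 7 were lower in cPLA_2_ KO DCs (20.6% of all genes were) and 2 with equal totals (14.6%), *Rfx5* again most (-0.87, SE 0.11). Under LPS 5 rose (37.2% of all genes did), with *Rfx5* at 1.37 (SE 0.07) and *Rfxap* and *Nfya* turning with equal totals. *Rfxank* fell under both scalings (-0.28, SE 0.06). Of all 7, 2 were higher and 3 lower past the threshold with equal totals (20.4% and 56.8% of all genes were).

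Of 11 genes of endosomal processing 8 rose and 3 fell with confinement in cPLA_2_ WT DCs, with a median of 0.28, against 28.2% of all genes higher and 28.4% lower. With equal totals 5 were higher and 4 lower past the threshold, against 20.0% and 41.3% of all genes, and *Lgmn* and *Cst7* turned. *Ctsc*, the peptidase cathepsin C, rose most (1.25, SE 0.04) and *Ctsh*, cathepsin H, fell most (-0.56, SE 0.07), both under both scalings. With confinement of cPLA_2_ KO DCs 3 rose and 3 fell, a share near that of all genes (22.8% and 23.4%). When confined, *Ctsc* was lower in cPLA_2_ KO DCs (-1.20, SE 0.04) and *Ctsd*, cathepsin D, higher (0.44, SE 0.05). Between confined genotypes 1 was higher and 6 lower in cPLA_2_ KO DCs with the deposited scaling (18.8% and 20.6% of all genes were), and 5 and 4 with equal totals (33.6% and 14.6%), where *Cst3* turned to 0.00. Under LPS 7 rose (37.2% of all genes did, and 34.3% fell), of which *Ctsd* and *Ctsl* turned with equal totals, where 4 were higher and 6 lower (20.4% and 56.8% of all genes were), and 3 fell, *Lgmn* most (-0.37, SE 0.03), while *Cst7*, the cystatin F gene, rose most (1.91, SE 0.03).

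Of 4 genes listed for surface turnover, *Cd83*, which opposes the ubiquitination of class II molecules, rose with confinement in cPLA_2_ WT DCs (2.36, SE 0.04) and under LPS (2.49, SE 0.03). *Cd83* was lower in confined cPLA_2_ KO than in confined cPLA_2_ WT DCs (-2.05, SE 0.04). *Cd86* rose as well, and the ubiquitin ligase genes *Marchf1* and *Marchf8* fell with confinement in cPLA_2_ WT DCs (-0.16 and -0.17, SE 0.04 each), so 2 of 4 rose and 2 fell, against 28.2% and 28.4% of all genes. Under LPS *Marchf1*, whose product ubiquitinates class II β-chains, fell (-0.50, SE 0.03). *Marchf8* was higher in confined cPLA_2_ KO than cPLA_2_ WT DCs (0.36, SE 0.04). These directions were the same under both scalings.

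*H2-Oa*, *H2-DMa*, *H2-DMb2*, *H2-DMb1*, *H2-Ab1*, *H2-Aa* and *H2-Eb1* lie on chromosome 17 between 34311314 and 34535648, with *Brd2*, *Psmb9*, *Tap1*, *Psmb8* and *Tap2* among them. Of these 5 interspersed genes, 2 rose and 2 fell with confinement in cPLA_2_ WT DCs (28.2% and 28.4% of all genes did), with *Tap1*, a subunit of the class I peptide transporter, highest (0.71, SE 0.04) and *Psmb8*, a subunit of the immunoproteasome, lowest (-0.44, SE 0.04). All 5 rose under LPS with the deposited scaling (37.2% of all genes did), where *Psmb8* turned with equal totals and *Tap1* was highest (1.60, SE 0.03), although *H2-DMa* lies between *Brd2* and *H2-DMb2* and fell 3.00-fold. With the deposited scaling 5 of 5 were lower in confined cPLA_2_ KO than cPLA_2_ WT DCs (20.6% of all genes were), and 4 with equal totals (14.6%), *Tap1* most (-1.41, SE 0.04). Beside *Ciita*, *Dexi* and *Socs1* rose with confinement in cPLA_2_ WT DCs and under LPS, *Socs1* by 0.98 (SE 0.06) and 1.11 (SE 0.04), and *Clec16a* passed in neither. With equal totals *Dexi* did not pass for confinement (0.10), and *Clec16a* was lower in both (-0.22 and -0.47). *Socs1* was lower in confined cPLA_2_ KO than cPLA_2_ WT DCs (-1.11, SE 0.06).

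The genes most like *Ciita* over the 6 condition means were sought among 11148 genes whose mean was 100 normalized counts or more, by the root mean square difference of their centred log2 levels. They were *Kynu*, the kynureninase gene (0.08), *Vsig10* (0.10), *Aif1l* (0.10), GSMG0054120, which has no symbol (0.12), and *Rgs3* (0.12), against a median of 0.67 over the genes compared. *Kynu*, for example, averaged 1995 normalized counts in nonconfined and 983 in confined cPLA_2_ WT DCs and 2492 under LPS in the libraries labelled cPLA_2_ WT. *H2-Ab1* was most like *Gata2* (0.05), *Cebpd* (0.07), *Alyref2* (0.07), *Lsp1* (0.09) and GSMG0060112, which has no symbol and lies on the mitochondrial chromosome (0.09), against a median of 0.39. Among the members themselves *H2-Aa* was 0.06, *Cd74* 0.09 and *H2-Eb1* 0.13 from *H2-Ab1*, whereas *Ciita* was 0.39 and *H2-DMa* 0.73 away from it. Of the other H2-M chain genes *H2-DMb1* was 0.34 and *H2-DMb2* 0.47 away. The classical chains and the invariant chain were thus nearer to *H2-Ab1* than *Ciita* or the H2-M chains were.

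The promoters of the set are shown because genes that share the class II promoter elements moved in different ways. The RefSeq table (GRCm38.p6) holds promoters for 7 of the 10 genes and for *H2-Ob* and *H2-Eb2*, and has none for *Ciita*, *H2-Ab1*, *Cd74* and *H2-Ea*. The letters TGATTGG, which contain the core of the Y box that NF-Y binds, and CNNATGATG, part of the X region as spelled in several class II promoters, were searched on both strands, and both spellings were chosen after the sequences were read. TGATTGG was found in 2568 of 32851 promoters (7.82%), CNNATGATG in 902 (2.75%) and both in 57 (0.174%), among them *H2-Eb1*, *H2-DMb1*, *H2-DMb2* and *H2-Ob*. The 140 bases printed for each gene lie upstream of its start, 5′ to 3′ along the gene, with matches in capitals. They are chr17:34287854-34287993 (minus strand) for *H2-Aa* and, on the plus strand, chr17:34305697-34305836 for *H2-Eb1*, chr17:34153021-34153160 for *H2-DMb1*, chr17:34145079-34145218 for *H2-DMb2*, chr17:34092209-34092348 for *H2-Oa*, chr17:34238735-34238874 for *H2-Ob* and chr17:34325505-34325644 for *H2-Eb2*.
H2-Aa: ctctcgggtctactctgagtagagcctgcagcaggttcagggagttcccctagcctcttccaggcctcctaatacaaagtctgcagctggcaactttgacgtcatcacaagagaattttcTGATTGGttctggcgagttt
H2-Eb1: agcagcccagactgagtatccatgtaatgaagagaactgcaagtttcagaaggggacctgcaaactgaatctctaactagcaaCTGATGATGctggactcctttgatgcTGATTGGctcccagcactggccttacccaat
H2-DMb1: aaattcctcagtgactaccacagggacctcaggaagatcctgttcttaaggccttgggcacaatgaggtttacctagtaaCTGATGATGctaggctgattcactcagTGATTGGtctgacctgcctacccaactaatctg
H2-DMb2: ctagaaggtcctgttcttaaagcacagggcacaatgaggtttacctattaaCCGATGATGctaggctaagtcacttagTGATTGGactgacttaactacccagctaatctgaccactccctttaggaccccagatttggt
H2-Oa: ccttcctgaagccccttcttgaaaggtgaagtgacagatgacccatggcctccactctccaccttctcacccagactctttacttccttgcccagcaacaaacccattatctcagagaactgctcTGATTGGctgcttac
H2-Ob: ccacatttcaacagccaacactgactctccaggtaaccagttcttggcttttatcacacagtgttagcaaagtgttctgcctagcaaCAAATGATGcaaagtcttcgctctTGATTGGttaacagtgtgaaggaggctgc
H2-Eb2: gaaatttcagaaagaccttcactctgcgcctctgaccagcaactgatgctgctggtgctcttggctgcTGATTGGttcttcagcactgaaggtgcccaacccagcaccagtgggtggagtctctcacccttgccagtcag

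TGATTGG starts 50 bases before the start of *H2-Aa*, 61 before *H2-Eb1*, 63 before *H2-DMb1*, 92 before *H2-DMb2*, 45 before *H2-Oa*, 59 before *H2-Ob* and 102 before *H2-Eb2*. CNNATGATG precedes it by 17 bases in *H2-Eb1*, 18 in *H2-DMb1* and *H2-DMb2* and 15 in *H2-Ob*, is not in the promoters of *H2-Aa*, *H2-Oa* and *H2-Eb2*, and neither spelling is in the promoters of *H2-DMa* and *Ctss*. *H2-Eb1* and *H2-DMb1*, which hold the same letters at both matches and differ by 1 base in the spacing, moved apart under LPS: *H2-Eb1* was at 0.46 and *H2-DMb1* at -0.62 with the deposited scaling, and at -0.04 and -1.11 with equal totals. The matches describe the sequences only.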

How the data were processed

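The signal values were deposited by the authors as gene counts divided by a size factor per library (DESeq2, version not given), after alignment with STAR 2.7.5a to mm39, counting with featureCounts 1.5.0 against FAST DB annotation, and R 3.5.3. Each library's size factor was recovered from its values, and 100% of the values gave whole reads (tolerance 0.001). The test was limma 3.58.1 in R 4.3.3 on log2 of the normalized count plus 1, with a mean for each of 6 conditions over 18 libraries, a trend in the prior variance and Benjamini-Hochberg adjustment over 17875 genes. Alternatives used edgeR 4.0.16 and DESeq2 1.42.0 on the recovered reads. Python 3.11.15 and matplotlib 3.10.9 made the plots. The 10 members and the lists were chosen with earlier results of these data known. Besides the members, the lists were other class II locus genes, class II promoter factors, factors that act on *Ciita* (without 1 gene first listed there), endosomal processing, surface turnover, neighbours of the class II genes, neighbours of *Ciita*, and markers of dendritic cells, macrophages, B cells, plasmacytoid dendritic cells, neutrophils and their progenitors, eosinophils, mast cells and basophils, and T cells. Named genes are all members, *Irf1*, *Rfx5*, *H2-Ob*, *Pla2g4a*, the 5 genes nearest to *Ciita* and to *H2-Ab1*, and from each list the gene with the largest increase and the gene with the largest decrease among those that passed for confinement in cPLA_2_ WT DCs, for LPS, or between confined genotypes. Any other gene was picked with its values in view. The searched promoter letters were also chosen after the sequences were read, and those of the X region were shortened after a longer spelling had been searched. Transcript lengths and overlaps come from the GENCODE annotation of the same build.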

Additional observations from a re-analysis of the deposited data

Results flagged for a closer look

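The response to confinement differed between cPLA_2_ WT and cPLA_2_ KO DCs, by the interaction term in limma, for *H2-Oa* (-0.69), *H2-Eb1* (-0.51), *H2-Aa* (-0.41), *H2-Ab1* (-0.36) and *Cd74* (-0.26), each given as the log2 change in cPLA_2_ KO DCs minus that in cPLA_2_ WT DCs. With equal library totals *H2-Ab1* was at -0.17 and *Cd74* at -0.07, and neither passed. Between confined genotypes *H2-Eb1*, *H2-Aa*, *H2-Ab1* and *Cd74* did not pass with the deposited scaling (-0.08, -0.07, 0.05 and -0.07). *H2-Ab1* did with equal totals (0.21). The same genes were higher in nonconfined cPLA_2_ KO than nonconfined cPLA_2_ WT DCs (0.43, 0.34, 0.41 and 0.19). *H2-Oa* was lower in confined cPLA_2_ KO than confined cPLA_2_ WT DCs (-0.53). All 6 neutrophil markers and 2 of 4 of mast cells and basophils had a positive interaction. With the deposited scaling 2 of 6 of macrophages, 1 of 3 of plasmacytoid DCs and 1 of 5 of DCs had a negative one. The part of these cells in these values was not tested. Genotype and donor cannot be told apart in these libraries.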

How the results depend on the processing

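Of the members' log2 fold changes compared with an alternative, 1701 kept their call, 87 lost the threshold, 9 gained it and 13 turned direction, and the cause was not tested. Of the 87, 48 were lost to the added demand of an absolute log2 fold change above 1, which can only remove calls. The 13 had passed in the reported fit or passed in the alternative. Turns of changes that passed in neither were not counted among them. All 13 turned at equal library totals: for confinement in cPLA_2_ WT DCs *H2-Eb1* (-0.17) and *Ctss* (-0.11); for LPS *Ciita* (-0.0417), *H2-Aa* (-0.25), *H2-Ab1* (-0.34), *H2-Eb1* (-0.0372), *Cd74* (-0.20) and *Ctss* (-0.32); for confined cPLA_2_ WT DCs against LPS *H2-DMb1* (0.12) and *Ctss* (0.18); for confined cPLA_2_ KO DCs against LPS *H2-DMb1* (0.16), *H2-Oa* (0.0906) and *Ctss* (0.36). That scaling called 41.3% of all genes lower for confinement in cPLA_2_ WT DCs and 56.8% for LPS. It left 0 members higher for confinement in cPLA_2_ WT DCs, 2 higher and 3 lower for the interaction, 5 higher between confined genotypes, 0 higher and 8 lower for LPS, and 3 higher and 4 lower for confined cPLA_2_ KO DCs against LPS (56.6% and 16.7% of all genes). Demanding an absolute log2 fold change above 1 left 0 higher and 3 lower for confinement in cPLA_2_ WT DCs, 4 lower in cPLA_2_ KO DCs, 0 lower for the interaction, 0 higher and 0 lower between confined and 0 higher between nonconfined genotypes, and 0 higher and 1 lower in each of the 3 comparisons with LPS. No share of all genes is given at this demand, so these counts describe the members only. With no filter 0 members were higher for confinement in cPLA_2_ WT DCs. For confined cPLA_2_ WT DCs against LPS, 1 was higher with only the libraries labelled LPS cPLA_2_ WT, and 1 with only LPS libraries numbered 1 and 2, an alternative chosen after seeing the data. Leaving out 1 library at a time, 0 to 1 members were higher for confinement in cPLA_2_ WT DCs, 3 to 5 lower for the interaction and 1 to 2 higher for confined cPLA_2_ WT DCs against LPS. With replicate number as a block, confinement in cPLA_2_ WT DCs gave 1 higher and 7 lower, with *Ciita* at -1.03, although in 0 of 15 pairs of conditions did all 3 correlations between libraries of the same number exceed 0.1 (-0.14 to 0.34).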
